A study of Drosophila melanogaster with 19 samples.

Results

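RNA bound by the helicase Armitage (Armi) was compared between cells that received a control knockdown (KD) and untreated cells, to measure how far Armi binding moved when no factor of its pathway was removed. All cells were ovarian somatic cells (OSC), a cultured Drosophila line of follicle origin. The comparison used 4 of the 19 samples of the series. The untreated group had 2 libraries, and the control group had 2 libraries of cells given RNA interference against EGFP, a jellyfish protein that flies do not encode. The labels give both groups the same antibody, raised against Armi itself, and the same ultraviolet crosslinking and RNase T1 digestion (FAST-iCLIP). They state no duration, dose or reagent for the knockdown and do not say whether libraries of a group came from separate cultures. Of 12013 transcripts listed with a symbol in both tables, 2929 averaged 5 RPM or more and were compared. RPM is the number of reads on a transcript scaled to the size of the library, here a measure of the RNA recovered with Armi.

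Armi is a putative RNA helicase of the piRNA pathway. In follicle cells, long single-stranded RNAs are gathered with Armi and the Tudor-domain protein Yb in perinuclear Yb bodies. They are cut by the endonuclease Zucchini (Zuc) at the mitochondrial surface, and the products are loaded onto the protein Piwi, which silences transposons in the nucleus. Besides RNA from piRNA clusters, the 3' untranslated regions of some messenger RNAs enter this route, and that of tj, which encodes the follicle cell transcription factor Traffic jam, is the known example. The deposited table sorts transcripts by their Piwi-bound small RNA in untreated cells, and its High class held 238 transcripts at 100.6 to 2958 RPM of Piwi-bound RNA. The Middle class spanned 20.11 to 99.99 RPM, the Low class ended at 19.55 RPM, and the Zero class had none. The classes therefore come from another readout than the iCLIP columns compared here.

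The control knockdown is deposited as 1 column although the labels name 2 libraries, so no spread between its libraries can be given and no test between the conditions was possible on replicates. Its column stands for 10.4 M (mega) reads, and the untreated columns for 6.97 and 8.92 M. The 12013 transcripts held 17.0% and 15.8% of the reads of the untreated libraries and 20.5% of the control knockdown reads. RPM counts every read of a library, so this larger share raised most ratios, and ratios are therefore also given relative to the median of the 2929 transcripts. Intervals on ratios of reads are exact 95% intervals for counting error only. Of 12 markers of this cell type, 7 averaged 5 RPM or more, among them tj, fs(1)Yb and piwi. Wnt4 and cas stayed under 1 RPM in all 3 columns (cas at 0), and Fas3, ct and bab1 stayed under 5 RPM. Of 12 germline marker genes found, 5 stayed under 1 RPM in all 3 columns (otu and tej at 0), and only spn-E and krimp averaged 5 RPM or more. The hemocyte markers Hml and He were at 0 in all 3 columns, and crq was bound at 35.1, 34.7 and 44.9 RPM and srp at 7.46, 10.3 and 11.2 RPM in untreated 1, untreated 2 and control knockdown. Summed RPM was 228, 216 and 320 for the germline markers and 48.5, 52.5 and 62.8 for the 8 hemocyte markers found, in untreated 1, untreated 2 and control knockdown in that order. Most of the germline sums came from spn-E alone, at 198, 193 and 287 RPM. The 12 follicle markers summed to 3646, 3344 and 5249 RPM, of which tj made up the larger part, and any part of cell makeup in the results was not tested.

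Armi-bound RNA in control knockdown and untreated cells was close to the same set at close to the same levels. The median transcript was 1.12-fold higher in the control knockdown (log2 0.16), and the middle 50% of transcripts lay between log2 -0.05 and 0.36. The highest ratio was log2 1.33. At least 2-fold higher values were seen for 10 transcripts (0.341%), and at least 2-fold lower values for 3 (0.102%). At 1.5-fold, 247 transcripts were higher (8.43%) and 52 were lower (1.78%). Relative to the table median, 71 were at least 1.5-fold above it (2.42%) and 133 at least 1.5-fold below it (4.54%).

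The same measures between the untreated libraries were smaller. Of the 2929 transcripts, 2 differed by at least 2-fold between untreated 2 and untreated 1 (0.0683%) and 102 by at least 1.5-fold (3.48%). The SD of the log2 ratios over transcripts was 0.24 between the untreated libraries and 0.32 for the control knockdown against their mean. Against untreated 1 or untreated 2 alone it was 0.35 and 0.34. Averaging 2 libraries lowers counting error, so the 0.32 is not like for like with the 0.24. The Pearson correlation of log2(RPM + 1) over the 2929 transcripts was 0.988 between the untreated libraries, and 0.979 and 0.980 between each of them and the control knockdown. The chi-square per degree of freedom, which is near 1 when reads differ by counting error alone, was 2.11 between the untreated libraries. It was 12.9 for the control knockdown against untreated 1 and 13.5 against untreated 2. The control knockdown column lay above both untreated libraries for 1712 transcripts (58.4%) and below both for 597 (20.4%). It thus differed from the untreated libraries by more than they differed from each other, while most transcripts lay under 1.5-fold from their untreated mean.

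As a yardstick within the study, the knockdown of Yb was compared with the same control column. In that comparison, as given and not centred, 3079 of the 4039 transcripts averaging 5 RPM or more lay at least 2-fold apart (76.2%). Their median log2 ratio was 1.58, so the count includes a shift shared by most transcripts. The 12013 transcripts held 34.2% of the Yb knockdown reads, against 20.5% of the control knockdown reads. On the 2929 transcripts compared here, 2043 lay at least 2-fold apart. The SD of their log2 ratios, which a shared shift does not change, was 1.21, against 0.32 for control knockdown over untreated. At 100 RPM or more (346 transcripts) the Yb median was -0.12, with 206 at least 2-fold apart, against 6 for control knockdown over untreated. Since both comparisons share the control column, their ratios were not correlated with each other.

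**Figure D1:**
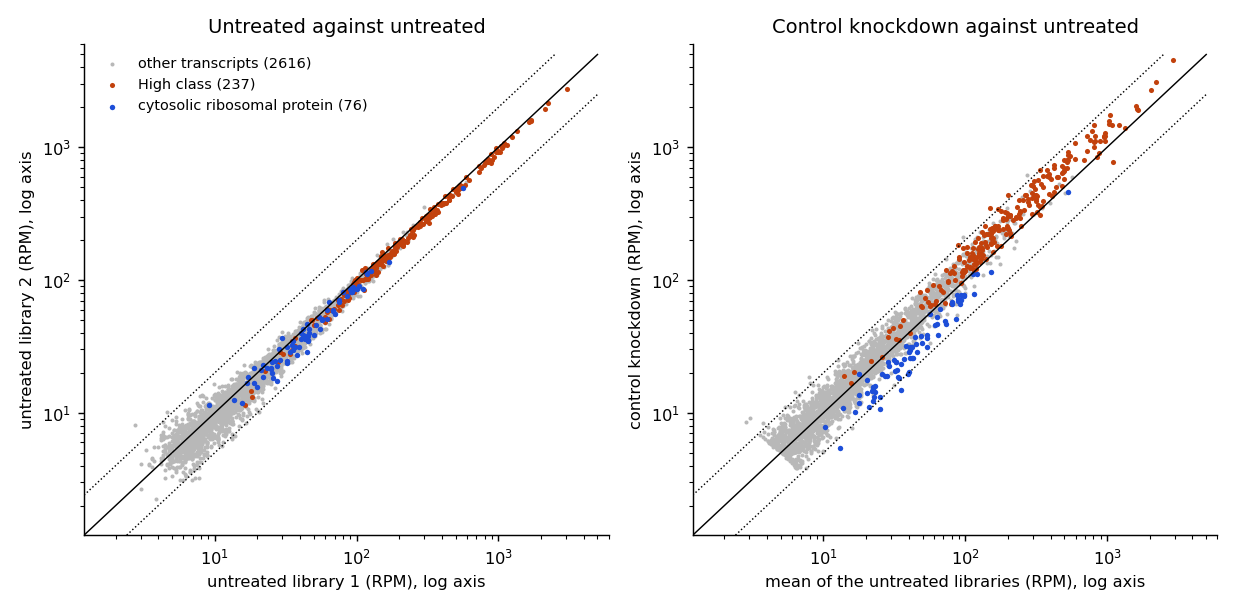
RPM of 2929 transcripts on log axes, untreated library 2 against untreated library 1 (left) and control knockdown against the untreated mean (right). Solid lines mark equal values and dotted lines a 2-fold difference. Red points are the 237 High class transcripts compared and blue points the 76 cytosolic ribosomal protein transcripts, which lie on opposite sides of the grey cloud in the right panel only.

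The spread between untreated libraries shrank steeply with level, and that of the control knockdown ratios shrank less. At a mean of 5 to 10 RPM, the SD of log2 ratios was 0.33 in both comparisons. From 500 RPM upward it was 0.26 for control knockdown over untreated and 0.06 between the untreated libraries. Among the 346 transcripts averaging 100 RPM or more, the SD was 0.29 against 0.10, and 303 of them lay above both untreated libraries and 15 below both. The departure therefore stood out most from the spread between untreated libraries for the most strongly bound RNAs. The SDs are not like for like, since the control ratios used a joined column and a mean of 2 libraries. Equal SDs at 5 to 10 RPM thus cannot decide whether the weakest RNAs departed.

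Most of the most strongly bound messages, all rich in Piwi-bound RNA, had more Armi signal in the control knockdown. The 10 transcripts with the highest untreated mean all belonged to the High class, and the control value lay above both untreated libraries for 9 of them and below both for 1, path. Of all 55 transcripts averaging 500 RPM or more, 54 were High class and 53 (96.4%) lay above both, so level and class cannot be told apart here. The 10 with the highest control knockdown RPM are described next. Since the control value chose them, that they lie above the untreated values is a description only. The tj transcript on chromosome arm 2L had 3040 and 2754 RPM in untreated cells and 4510 RPM in the control knockdown. Its reads were 1.57-fold higher (interval 1.55 to 1.59). The next highest was brat, which encodes a translational repressor of neural stem cells and germ cells, at 2255 and 2153 RPM in untreated cells and 3109 RPM in the control knockdown. The transcript of dm, the fly Myc gene, had 2144 and 1954 RPM untreated and 2709 RPM after control knockdown. These top 3 were thus 1.33- to 1.57-fold higher by reads, with untreated values far closer to each other than to the control. Tis11, which encodes an RNA-binding protein that promotes decay of messages with AU-rich elements, had 1084 and 1028 RPM untreated and 1753 RPM in the control knockdown, 1.67-fold higher by reads (1.63 to 1.70). The smallest ratio among the 10 belonged to CG11360, at 1710 and 1600 RPM untreated and 1900 RPM in the control knockdown. The others were l(2)gl, a polarity gene, CG10289, mei-P26, a relative of brat, Hrb27C, an RNA-binding protein gene, and Eip63E, and their read ratios ran from 1.19 to 1.52. Scaled to the reads of the 12013 transcripts, 7 of the 10 were still higher, and CG10289, CG11360 and Eip63E were lower.

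Over the whole High class, the median log2 ratio of the 237 transcripts compared was 0.42, a 1.33-fold higher level, and 0.26 above the table median. All but 1 of its 238 transcripts passed the filter on level. The control knockdown lay above both untreated libraries for 217 of the 237 (91.6%), between them for 16 and below both for 4. Over all 2929 transcripts, 58.4% lay above both and 20.4% below both. At least 1.5-fold higher values were reached by 68 High class transcripts and at least 2-fold higher values by 4, and none was 1.5-fold lower. Over all transcripts these shares were 8.43%, 0.341% and 1.78%. The Middle class (729 compared) had a median of 0.23, and its control value lay above both untreated libraries for 517 (70.9%). The Low class (1943 compared) had a median of 0.10, which was 0.06 below the table median. Of its transcripts, 970 (49.9%) lay above both untreated libraries and 494 (25.4%) below both. The order High, Middle, Low also held when each untreated library was used alone, with High medians of 0.37 and 0.48 and Low medians of 0.05 and 0.15. Scaled to the reads of the 12013 transcripts, the table median moved by -0.31, the High class median was 0.09, and the Middle and Low class medians changed sign to -0.08 and -0.21. Ratios above 0 then fell from 230 to 158 of the 237 High class transcripts, and from 70.1% to 31% of all transcripts. The counts above both untreated libraries use values as given and carry this shift.

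The same shift appeared in the makeup of the bound RNA. High class transcripts took 47.1% and 47.3% of the reads on the 12013 transcripts in untreated cells and 51.6% in the control knockdown (exact interval 51.5 to 51.6%). Low class transcripts took 25.1% and 24.99% in untreated cells and 21.5% in the control knockdown. The Middle class took 27.2%, 27.1% and 26.4%. In each class the untreated libraries lay close together and the control column outside both.

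**Figure D2:**
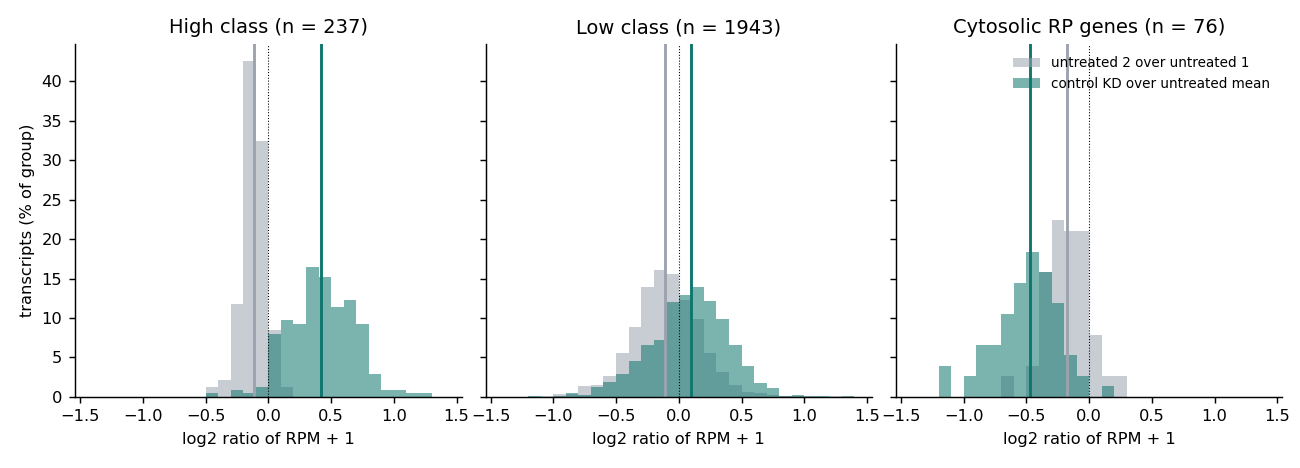
Histograms of log2 ratios of RPM + 1 over transcripts, as percent of the group, for the High class, the Low class and cytosolic ribosomal protein (RP) genes. Grey is untreated 2 over untreated 1 and green is control knockdown over the untreated mean, with vertical lines at the medians. The green median is 0.42 in the High class, 0.10 in the Low class and -0.48 for RP genes.

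Class and level were entangled, since strongly bound transcripts were mostly High. The median log2 ratio of all transcripts was 0.03 at 5 to 10 RPM, 0.17 at 20 to 50 RPM and 0.46 at 200 to 500 RPM. Within bins of like level the classes stood closer together. At 50 to 100 RPM the medians were 0.33 for 25 High, 0.30 for 239 Middle and 0.23 for 90 Low transcripts. At 100 to 200 RPM they were 0.37 for 69 High, 0.38 for 99 Middle and 0.10 for 16 Low transcripts, and the Low value was 0.24 without its 3 RP genes. At 200 to 500 RPM they were 0.49 for 76 High and 0.31 for 29 Middle transcripts. High and Middle transcripts were thus near each other from 50 to 200 RPM, and the part of level and of class was not tested further.

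**Figure D3:**
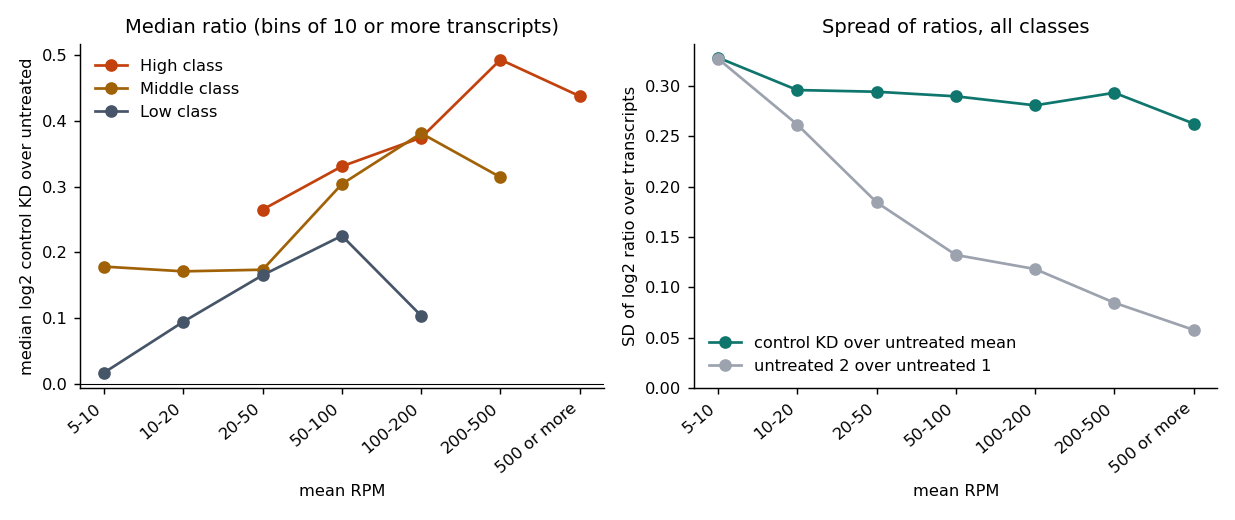
Left, the median log2 ratio of control knockdown over untreated by bin of mean RPM for the High, Middle and Low classes, for bins of at least 10 transcripts. Right, the SD of log2 ratios over transcripts in each bin, which stays between 0.26 and 0.33 for control knockdown over untreated and falls from 0.33 to 0.06 between the untreated libraries.

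Among transcripts averaging 100 RPM or more, Rac1, a small GTPase that organises actin, had the largest ratio. Its transcript on 3L had 149 and 152 RPM in untreated cells and 348 RPM in the control knockdown, 2.31-fold more reads (2.19 to 2.43). The transcript of fax, which encodes a protein of axon development that acts with Abl, had 282 and 268 RPM untreated and 614 RPM in the control knockdown, 2.24-fold more (2.16 to 2.33). Kif3C, a kinesin motor gene on chromosome 4, had 105 and 86.9 RPM untreated and 212 RPM in the control knockdown. In these transcripts the untreated values lay close together and the control stood apart at more than 2-fold. The transcript of kel, which encodes the Kelch protein of ovarian ring canals, had 207 and 196 RPM untreated and 436 RPM in the control knockdown. Larp, an RNA-binding regulator of translation encoded by larp, was the most strongly bound of the 12, with 618 and 564 RPM untreated and 1080 RPM in the control knockdown. The other 7 were CG31875, Reps, Psi, a splicing regulator of the P element, CG8786, CG9171, CG30463 and CG32479, with read ratios from 1.83 to 2.08. Of the 12 transcripts, 9 were High and 3 Middle class. All 12 stayed higher when scaled to the reads of the 12013 transcripts, but this is no check. They were chosen for the largest ratios, and a shift of that size could not turn their sign. The smallest of the 12, CG32479, moved from log2 0.87 to 0.54.

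The 10 transcripts past 2-fold over all levels included 4 High class ones, Rac1, kel, CG31875 and Reps, and 2 Middle class ones, fax and Kif3C. The other 4 were Low class and weakly bound, Syn2, CG42394, CG31693 and obst-H, with at most 18.7 RPM in the control knockdown. Syn2 and CG42394 averaged under 5 RPM in untreated cells and entered the comparison through their control value, and with the filter on the untreated mean alone 8 transcripts were past 2-fold. Syn2 had 3.87 and 2.24 RPM untreated and 9.21 RPM in the control knockdown, the largest ratio of all (log2 1.33), on few reads (read ratio 3.11, interval 2.17 to 4.51).

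At the other end at 100 RPM or more stood path, a High class transcript on 3L that encodes an amino acid transporter. It had 1159 and 1039 RPM in untreated cells and 777 RPM in the control knockdown, 1.40-fold fewer reads (1.37 to 1.44). It was 1 of 4 High class transcripts below both untreated libraries, with Xrp1, CG18446 and CG2144, and it went against the class by the widest margin. Abl, the tyrosine kinase gene, had 164 and 186 RPM untreated and 133 RPM in the control knockdown, 1.33-fold fewer reads (1.25 to 1.42). CG15784 had 224 and 219 RPM untreated and 173 RPM in the control knockdown, so its untreated values agreed closely and the control lay below both. The other 9 of the 12 smallest ratios held 3 RP genes (RpS29, RpL41 and RpS23) and housekeeping genes. Ef1alpha48D, the elongation factor 1 alpha gene, had 514 and 496 RPM untreated and 450 RPM in the control knockdown. The alpha-tubulin gene alphaTub84B had 181 and 159 RPM untreated and 148 RPM in the control knockdown. The list closed with Gapdh2 of glycolysis, eIF-5A of translation, CG11138 and CG32320. Relative to the table median, these 12 lay 0.28 to 0.66 below on the log2 scale. All were lower as given, and scaling to the reads of the 12013 transcripts lowers ratios throughout and so is no check. Several of these genes have near-identical relatives, and how reads with several matches were counted is not given in the sources used here.

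**Figure D4:**
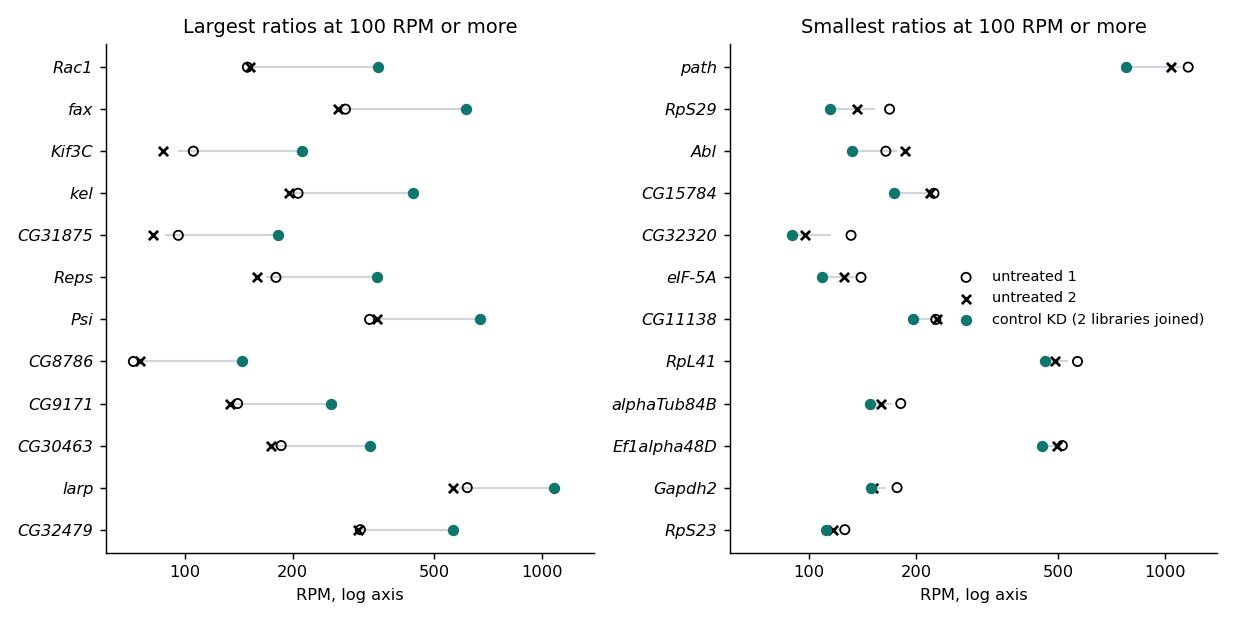
RPM on a log axis in each column for the 12 largest (left) and the 12 smallest (right) ratios among transcripts averaging 100 RPM or more whose control value lay outside both untreated libraries. Open circles and crosses are the untreated libraries and filled green circles the control knockdown (2 libraries joined in 1 column). A grey line joins the untreated mean to the control value. The gap between green and black points is wide on the left and narrower on the right, where path has the largest.

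Messages of cytosolic RP genes, the structural proteins of the ribosome, were lower as a group, as given and relative to the table median. Scaled to the reads of the 12013 transcripts, the RP median was -0.81, but that scaling lowers ratios throughout and so is no check. Of 84 in the tables, 76 were compared, and their median log2 ratio was -0.48, a 1.39-fold lower level, which was 0.64 below the table median. The ratio was below 0 for 75 of the 76 and below the table median for all 76. The exception above 0 was RpL35, at 19.8 and 15.7 RPM untreated and 19.5 RPM in the control knockdown. The control column lay below both untreated libraries for 73 of the 76, against 20.4% of all transcripts. At least 1.5-fold lower values were reached by 23, which made up a large part of the 52 transcripts of the table that were. All 3 transcripts at least 2-fold lower were RP genes.

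RpL18 had 27.5 and 22.5 RPM untreated and 10.6 RPM in the control knockdown, 2.32-fold fewer reads (1.88 to 2.895). RpL29 had 13.8 and 12.6 RPM untreated and 5.47 RPM in the control knockdown. In both the control value lay far below both untreated ones. RpL41 and RpS29, the most strongly bound members, were lower by less. RpL41 had 567 and 490 RPM untreated and 459 RPM in the control knockdown, and RpS29 had 169, 136 and 115 RPM in that order. RpL36, at 91.2 and 80.9 RPM untreated, stood at 50.8 RPM in the control knockdown, 1.68-fold fewer reads (1.52 to 1.86). All 84 summed to 4454 and 3944 RPM untreated and 3165 RPM in the control knockdown. Their share of reads on the 12013 transcripts was 2.63% and 2.50% in untreated cells and 1.54% in the control knockdown (1.53 to 1.56%).

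RP genes are short, and the part of gene length in their ratios was not tested beyond the following values. Among 214 other transcripts whose gene length fell in the middle 50% of the RP genes' lengths (1070 to 1755 bases), the median ratio was 0.08, and 1 was at least 1.5-fold lower. With other transcripts split into 4 equal groups by gene length, the medians from the shortest to the longest were 0.14, 0.16, 0.17 and 0.22. RP genes differed a little between the untreated libraries as well, by a median 0.07 below that of all transcripts. Of the 100 lowest ratios in the table, 37 were RP genes, which is 48.7% of the RP genes compared, and none of the 100 highest was.

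Other genes of translation lay between. Of 15 translation factor transcripts, 12 lay below the table median, and the median log2 ratio was -0.06. For 4 of them (26.7%) the control value was above both untreated libraries and for 6 (40%) below both. Over all transcripts these shares were 58.4% and 20.4%. The eIF3 subunit gene eIF3-S8 was the lowest, with 21.1 and 24.0 RPM untreated and 13.5 RPM in the control knockdown, 0.60-fold by reads (0.49 to 0.73). The poly(A)-binding protein gene pAbp, the most strongly bound factor, had 590 and 549 RPM untreated and 599 RPM in the control knockdown. Of 19 transcripts on a list of cytoskeletal genes (which also holds mam, a Notch co-activator), 12 lay below the table median. Act5C, a cytoplasmic actin gene, had 310, 304 and 314 RPM in untreated 1, untreated 2 and the control knockdown. Over this list, 8 control values (42.1%) were above both untreated libraries and 4 (21.1%) below both, against 58.4% and 20.4% of all transcripts. Among those above were sqh, the myosin light chain gene, at 219 and 198 RPM untreated and 288 RPM in the control knockdown.

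Transcripts of the piRNA pathway itself were close to their untreated levels. Of 13 compared, 8 had control values above both untreated libraries, near the 58.4% of all transcripts, and 1 below both. The median was 0.22, and none reached 1.5-fold. The armi transcript had 148 and 133 RPM in untreated cells and 144 RPM in the control knockdown, between the untreated values. The transcript of fs(1)Yb, the Yb gene, had 214 and 229 RPM untreated and 269 RPM in the control knockdown, 1.21-fold more reads (1.15 to 1.27). In the Yb knockdown column it stood at 23.8 RPM, which checks that label. The piwi transcript had 212 and 183 RPM untreated and 274 RPM in the control knockdown, 1.40-fold more reads (1.33 to 1.47). The transcripts of zuc, mael and shu, further piRNA factors, lay between the untreated values, at 3.36, 12.3 and 8.34 RPM in the control knockdown. Scaled to the reads of the 12013 transcripts, the ratios of armi, fs(1)Yb, mael, shu and Dcr-2 changed sign, so the direction of these depends on the scaling. The symbols vret, SoYb, Gasz, Panx and arx matched no transcript and were not analysed here.

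Both knockdowns used RNA interference, which untreated cells did not receive, so factors of small RNA silencing and innate immunity were listed as well. Dcr-2, the nuclease that makes small interfering RNA, had 363 and 331 RPM untreated and 358 RPM in the control knockdown, between the untreated values. AGO2, the protein that carries those small RNAs, had 15.9 and 18.5 RPM untreated and 15.8 RPM in the control knockdown, with an interval on the read ratio from 0.75 to 1.11. AGO1, its counterpart for microRNA, had 215 and 198 RPM untreated and 309 RPM in the control knockdown, 1.505-fold more reads (1.43 to 1.58). Of the 9 innate immunity transcripts compared, 6 had control values above both untreated libraries and 2 below both, against 58.4% and 20.4% of all transcripts. Stat92E, the transcription factor of the JAK-STAT pathway, had 218 and 197 RPM untreated and 308 RPM in the control knockdown. Rel, the NF-kappaB factor of the Imd pathway, was weakly bound and lower, at 7.60, 6.62 and 4.22 RPM, with a read ratio of 0.60 (0.41 to 0.86). AGO1 and Stat92E thus stood above both untreated values and Rel below both.

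The remaining lists had medians nearer that of the table than the RP genes did. Over all transcripts, 58.4% had control values above both untreated libraries, and the counts here are read against that share. Cell cycle transcripts had a median of 0.35 over 15 transcripts, 8 of them above the table median and 7 below, with 10 control values above both untreated libraries and none below both. Their median was 0.19 above that of the table, and 0.12 above it without untreated replicate 2. Polo kinase's transcript, polo, had 34.99 and 30.3 RPM untreated and 56.3 RPM in the control knockdown, and that of cyclin A, CycA, had 76.2, 74.4 and 117 RPM. For the rest, 13 of the 17 transcripts of RNA decay and translational repression lay above both untreated libraries. The largest ratio among them was that of tral, at 273 and 251 RPM untreated and 434 RPM in the control knockdown. Of the 14 transcripts of cell polarity and Hippo signalling, 8 lay above both, which is near the 58.4% of all transcripts. Their largest ratio was that of dlg1, at 199, 196 and 347 RPM. The medians of the heat shock and chaperone, proteasome, and helicase and nonsense-mediated decay lists were 0.15, 0.09 and 0.10. That of the stress response list was 0.02, which is 0.14 below the table median. It was 0.26 below it without untreated replicate 1 and 0.23 below it without untreated replicate 2. Germline and follicle list medians were both 0.19.

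**Figure D5:**
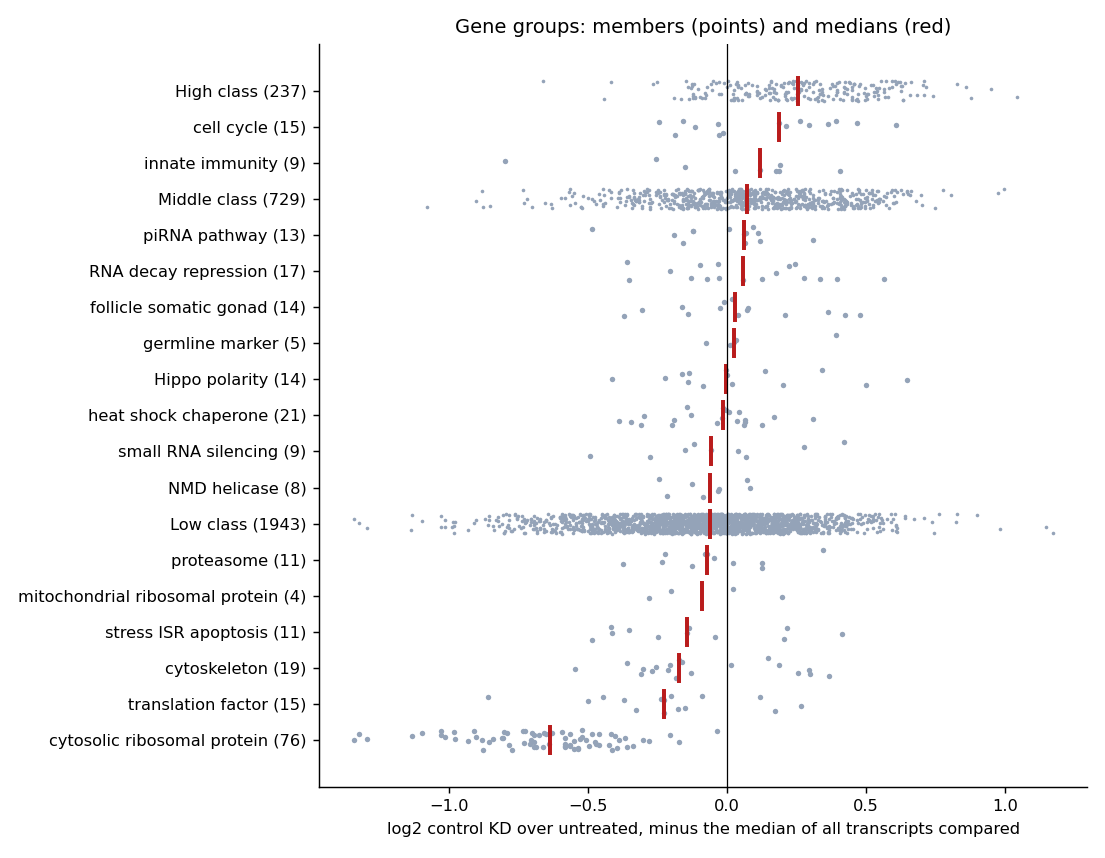
Log2 ratio of control knockdown over untreated minus the table median for the transcripts of each class and gene list with at least 4 compared (number in brackets). Points are transcripts, red bars are medians and the black line is the table median of 0. Cytosolic RP genes lie 0.64 below it with no member above, and the High class 0.26 above it.

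A count test on recovered reads was added as a description, since the control arm is 1 column and its own spread is unknown. With edgeR's quasi-likelihood test, in which the lone control column is assumed to vary as the untreated libraries do, 350 transcripts were higher (11.9%) and 192 lower (6.56%) at a Benjamini-Hochberg adjusted p of 0.05, with TMM scaling. At an unadjusted p of 0.05 there were 826. The High, Middle and Low classes each had transcripts called in both directions, while RP genes were called only as lower. Of the 24 transcripts with the largest and smallest ratios, all passed with TMM. With the libraries' implied totals instead of TMM, 412 were higher and 43 lower, 31 of the 43 being RP genes, and only path and Abl of the 12 smallest still passed.

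The control condition was also replicated in another assay. In CLIPPARE, which reads the 5' ends of Armi-bound RNA, control knockdown replicate 2 against replicate 1 compares cells with the same label. There the median log2 ratio was 0.46, and 0.81 in the High class. Of the High class, 193 of 237 lay above the table median of that ratio, and 73 of the 76 RP genes lay below it. The classes thus stood apart between replicates of 1 condition. Replicate numbers are arbitrary, and dividing replicate 1 by replicate 2 would reverse the counts in this paragraph and the signs of its correlations. The direction is therefore no agreement with iCLIP, and only the separation of the groups is described. Over the 2929 transcripts the Spearman rank correlation of the iCLIP and CLIPPARE ratios was 0.40, and within classes it was 0.56 in High, 0.50 in Middle and 0.25 in Low. These pairs share no library, and transcripts are not independent replicates. All 12 of the largest iCLIP ratios lay above the CLIPPARE median and 11 of the 12 smallest below it. Rac1, for example, had 79.3 and 248 RPM in the CLIPPARE replicates, and path had 668 and 604 RPM.

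Piwi-bound small RNAs were read in 1 library of each condition, at 1.79 M reads untreated and 0.813 M after control knockdown, and the control library's label names an anti-Myc antibody while its protocol names anti-Piwi. The median log2 ratio of control knockdown over untreated was 0.80 over the 2929 transcripts and 0.03 in the High class, but the classes were cut on the untreated Piwi value in that ratio, so the difference between classes is not a result. Within classes, the Spearman correlation with the Armi iCLIP ratios was 0.07 in High, -0.07 in Middle and -0.04 in Low. For tj, Piwi-bound RNA was 2958 RPM untreated and 4303 RPM after control knockdown, and for brat it was 1286 and 3396 RPM. For Psi, whose Armi signal was 1.98-fold higher by reads, it was 639 and 469 RPM. Without replicates these differences carry counting error only and are given as values.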

How the data were processed

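Per the file headers and file names, the authors deposited RPM (reads on a transcript scaled to library size) per FlyBase transcript. The tools named for trimming and alignment are cutadapt and STAR, with genome build dm6, per the submitters' processing notes. Their versions, the counting, strand and the removal of duplicates are not given in the sources used here. All values were whole multiples of 1 step per column (tolerance 0.1 read), from which reads and totals were recovered. How the 2 control libraries were joined is not stated. Lines repeated in the control table (107) were dropped, and 1916 transcripts without a symbol, with 11.4% and 11.6% of the untreated RPM in that table, were not in the comparison. Of the symbols, 11917 matched the RefSeq gene table. Deposited loci follow another assembly than dm6, so no positions are given.

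Ratios were log2((control RPM + 1)/(mean untreated RPM + 1)) for transcripts averaging 5 RPM or more, a scale that understates changes of low values. The members and lists were chosen with earlier results of these data known. Named were the 12 highest and 12 lowest ratios from 100 RPM upward with the control outside both untreated values, the 10 highest control RPM, piRNA and small interfering RNA factors, up to 4 of the highest members of each list and any member past 2-fold. Transcripts named beyond that (CG18446, CG2144, Xrp1, Rel, eIF3-S8, RpL18, RpL29, RpL35, RpL36 and the weakly bound ones past 2-fold) were chosen after their values were seen. Counts were tested with edgeR 4.0.16 in R 4.3.3 on recovered reads, a test added after the data were seen and checked on simulated data. Tables were handled with pandas 2.3.3 in Python 3.11.15, intervals came from scipy 1.17.1, and figures from matplotlib 3.10.9. P-values measure the spread between 2 untreated libraries, which may be technical.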

Additional observations from a re-analysis of the deposited data

Results flagged for a closer look

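For 6 named transcripts the Piwi-bound small RNA in control knockdown against untreated cells, with 1 library of each, lay at least 2-fold apart in the direction opposite to Armi iCLIP, where the control knockdown lay outside both untreated libraries. The difference between the readouts was not tested. The log2 ratio in Piwi small RNA was 1.67 for RpS29, 1.54 for Abl, 1.445 for CG15784, 1.44 for Ef1alpha48D and 1.48 for AGO2, all lower in Armi iCLIP. The direction of AGO2 in Armi iCLIP is not resolved, at 15.9 and 18.5 RPM untreated and 15.8 RPM in the control knockdown, with a read ratio interval of 0.75 to 1.11. It was -1.46 for fs(1)Yb, which was higher in Armi iCLIP as deposited and lower when scaled to the reads of the shared transcripts. The median log2 ratio over all transcripts compared in Piwi small RNA was 0.80, so the values as given include a shift shared by most transcripts. Relative to that median, only fs(1)Yb lay at least 2-fold away, and the transcripts higher in Piwi small RNA lay less than 2-fold above it. By reads, Piwi-bound RNA was 2.95-fold higher for Abl (2.24 to 3.899, counting error only) and 2.82-fold lower for fs(1)Yb (1.82 to 4.54).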

How the results depend on the processing

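No paired analysis was possible because the control knockdown is 1 joined column that carries no replicate numbers. Leaving out untreated replicate 1 or 2 in turn gave 12 to 18 transcripts at least 2-fold higher and 3 to 7 lower, 203 to 369 at least 1.5-fold higher and 48 to 108 lower, 5 to 6 at least 2-fold above and 14 to 21 below the table median, a High class median 0.26 above it at either setting (0.258 to 0.262) and an RP median from -0.65 to -0.60 relative to it. With edgeR no replicate could be left out, since no residual degrees of freedom remained.

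Scaled to the reads of the shared transcripts, the table median was -0.15, the High median 0.092 (0.246 relative to the table median), the Low median -0.21 and the RP median -0.81, with 2 transcripts at least 2-fold higher, 39 lower, 22 at least 1.5-fold higher and 325 lower. With centring, these medians were 0, 0.26, -0.062 and -0.64, and the counts 3, 11, 71 and 133. With no filter, the table median was 0.069, High 0.35 and RP -0.50 relative to it, and counts were 33 higher, 21 lower, 491 and 269 at 1.5-fold, and 17 above and 31 below the table median. At a mean of at least 20 RPM, the table median was 0.24, the Low median 0.18 and High 0.18 relative to the table, with 6, 1 and, at 1.5-fold, 18 lower, and 0 above and 7 below the table median. A pseudocount of 5 gave 6, 1, 162 and 21, with 2 below the table median, High 0.28 and RP -0.55 relative to it. A pseudocount of 0.1 gave 5 at least 2-fold lower and High 0.25, and a filter on the untreated mean alone gave High 0.27. Implied totals in place of TMM gave 43 lower by edgeR. The High class median stayed above and the RP median below the table median in every setting run.

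Of the 41 named transcripts, 8 changed sign when scaled to shared reads, 4 with centring, 3 without untreated replicate 2 and 1 without replicate 1. Of the other 14 list medians, up to 5 changed side of the table median. At high RPM the joined column leaves the spread between control libraries unknown, and scaling alone turned the sign of CG10289, CG11360 and Eip63E.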
